A study of Mus musculus with 10 samples.

Results

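The genes described here encode the machinery of autophagy and of LC3-associated phagocytosis. They were followed in retinal cells gated as microglia and sorted by the scavenger receptor CD36. The genes are 41 symbols, listed by role, that were matched to the symbol column of the count table. All 41 were found, out of 21869 genes in the table, and all 41 passed the filter on low counts. In 5 libraries of CD36-positive cells and 5 of CD36-negative cells, 3 of them were lower in CD36-positive cells: Uvrag, Gabarapl2 and Optn. None was higher in edgeR's test, and the remaining 38 did not pass.

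In autophagy a double membrane grows around cell contents, closes, and fuses with lysosomes. The ULK1 kinase complex starts the process, a class III phosphatidylinositol 3-kinase marks the membrane, and a pair of ubiquitin-like conjugation systems attaches LC3 and GABARAP proteins to it. In LC3-associated phagocytosis the same conjugation machinery, without the ULK1 complex but with Rubicon and the NADPH oxidase, attaches LC3 to phagosomes that hold engulfed material. In the retina, the pigment epithelium digests engulfed photoreceptor tips this way, and microglia also engulf photoreceptor debris.

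CD36-positive libraries are numbered 1, 2, 3, 4 and 7 and CD36-negative libraries 1, 2, 4, 7 and 8. Both groups are wild-type mouse cells by their titles, gated as live, CD11b-positive and CD45-intermediate from dissociated retina, a gate the labels call microglia. The protocol gives mice 20 mg/kg of sodium iodate, which damages the retinal pigment epithelium, or saline, and collects eyes 7 days later. Which of the 2 agents each of the 10 samples received is not in the labels, and neither are the strain, age and number of mice. No treatment was therefore compared, and p-values measure the spread between samples that may share animals.

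Library totals ran from 5001692 to 13250984 counts in CD36-positive libraries and from 9361263 to 12138472 in CD36-negative ones. CD36-positive libraries 1 and 3 were the shallowest. Cd36 itself was at 219 ± 39.9 CPM in CD36-positive libraries and 50.3 ± 5.51 in CD36-negative ones (CPM, a gene's share of the TMM-scaled library; mean ± SD, n = 5 each, as in all such pairs of values). The 10 microglia markers summed to 8495 to 18626 CPM in CD36-positive libraries and 7987 to 18910 in CD36-negative ones, and 0 of 10 passed the test in either direction.

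Across 11596 genes tested, 4.74% were lower and 2.61% higher in CD36-positive cells by edgeR's quasi-likelihood test (adjusted p under 0.05). Among the 41 autophagy genes 7.32% were lower and 0 were higher, so the share of calls in either direction, 7.32%, was near the 7.36% of all genes. At an unadjusted p under 0.05 there were 9 lower and 3 higher members, while 10.8% of all genes were lower and 10.6% higher by that rule. DESeq2 and limma voom also called 0 members higher. The median log2 fold change (CD36-positive over CD36-negative) was -0.26 over the 41 members and 0.02 over all genes tested. Of all genes tested, 5.83% had all CD36-positive libraries below all CD36-negative ones and 2.59% had them all above, and among the 41 members 5 (12.2%) lay below and 1 above. The log2 fold change was negative for 29 of the 41, or 70.7%, against 48.8% of all genes. These counts and medians describe the list and were not tested as a set. In bulk samples such as these, fewer cells of a type and less RNA per cell cannot be told apart.

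**Figure D1:**
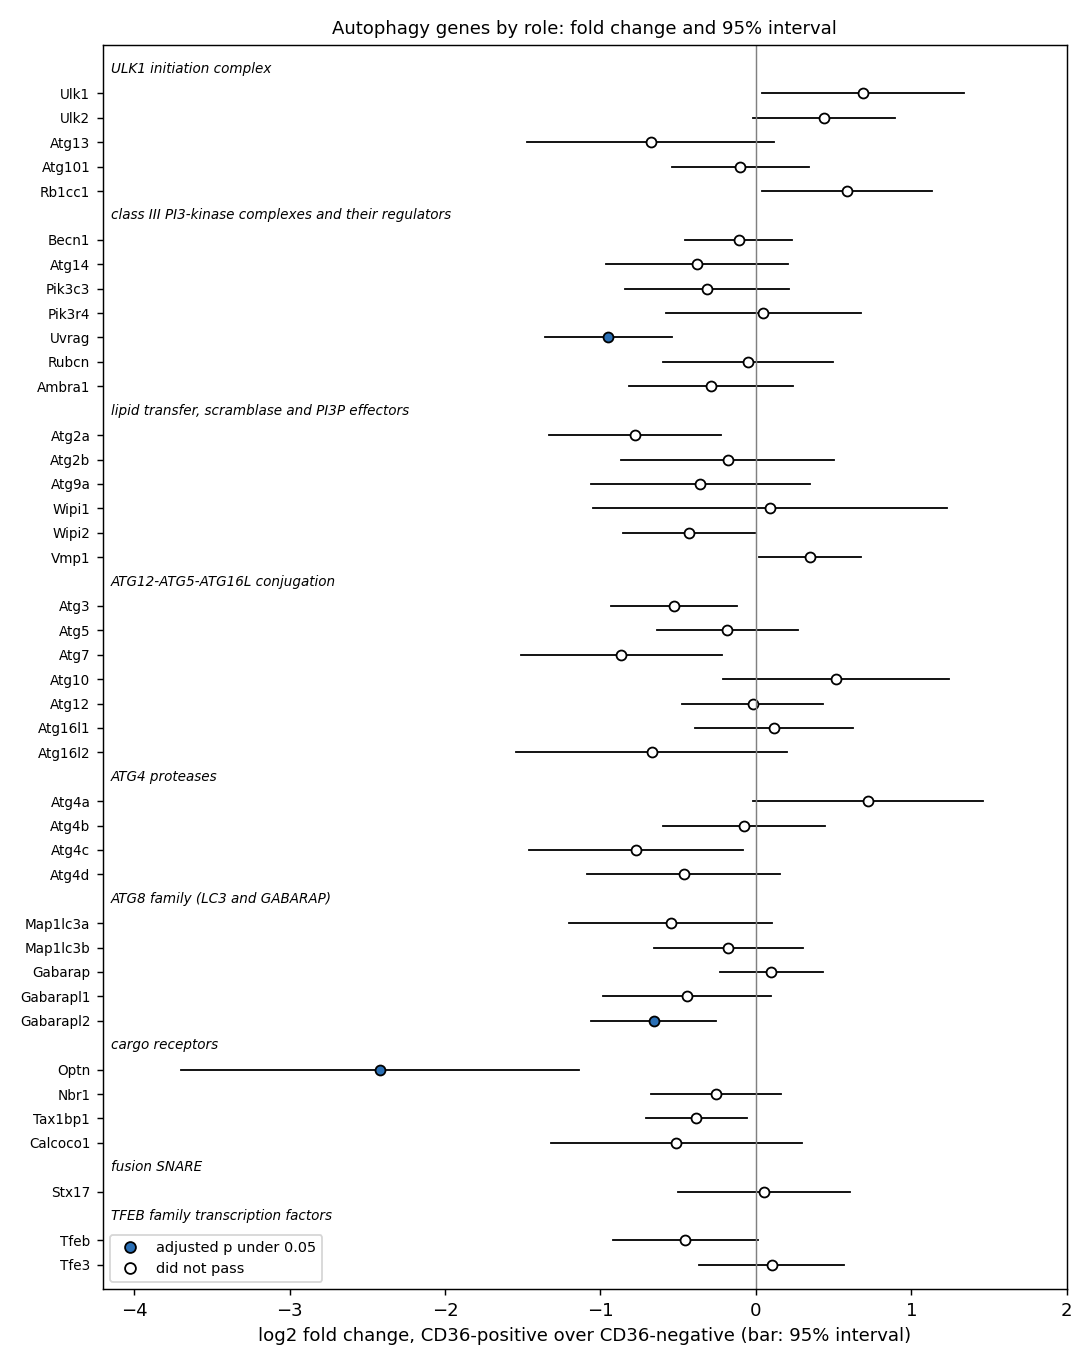
Log2 fold change of each of the 41 genes (x axis, CD36-positive over CD36-negative libraries) with its 95% interval, grouped by role, from a fit to 5 libraries of each group. Filled points are the 3 genes with an adjusted p under 0.05, all to the left of 0, and Optn has the widest interval (-3.70 to -1.14).

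Of the 38 members that did not pass, 24 had a 95% interval that lay inside a 2-fold change in either direction. Without CD36-negative library 2 the count of lower members was 1, against 3 with all libraries, and it was 2 or 3 without any other single library.

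Uvrag, which binds Beclin 1 in the endosomal form of the class III PI3-kinase complex, had the smallest p. It was at 66.6, 51.5, 58.2, 52.7 and 56.7 CPM in CD36-positive libraries 1, 2, 3, 4 and 7. In CD36-negative libraries 1, 2, 4, 7 and 8 it was at 76.2, 109, 143, 118 and 105 CPM. All CD36-positive libraries lay below all CD36-negative ones, within a narrow band, and CD36-negative library 1 was the lowest of its group. The log2 fold change was -0.95 (SE 0.19, edgeR adjusted p = 0.00486). Uvrag passed in all 22 alternative analyses, at -1.06 to -0.86, with adjusted p from 0.000105 to 0.0417 over all alternatives. The gene lies on chromosome 7 of GRCm38 from 98885021 to 99141141, on the minus strand. An annotated antisense gene covers 17.6% of its exon bases, and since no source used here gives the strand setting of the counting, reads of the 2 genes there cannot be told apart.

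Gabarapl2, an ATG8 family gene whose protein is conjugated to autophagosome membranes, was at 95.1, 120.1, 143, 104 and 129 CPM in CD36-positive libraries 1, 2, 3, 4 and 7. In CD36-negative libraries 1, 2, 4, 7 and 8 it was at 170.1, 256, 198, 156 and 152 CPM. The groups did not overlap, and CD36-negative library 2 was the highest of its group. Its log2 fold change was -0.66 (SE 0.19, edgeR adjusted p = 0.0436). The call was near the threshold. With 1 library left out it passed when that was number 3 of the CD36-positive or number 8 of the CD36-negative libraries and was lost for each of the other 8, with adjusted p from 0.00756 to 0.120 over all alternatives. The gene lies on chromosome 8 of GRCm38 from 111940703 to 111953612, on the plus strand, and no other annotated gene overlaps its exons.

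Optn encodes optineurin, a receptor that links ubiquitin-tagged mitochondria and bacteria to LC3. It was scarce in every library: 2.23, 3.73, 0.860, 1.69 and 1.11 CPM in CD36-positive libraries 1, 2, 3, 4 and 7, from 6 to 33 counts each. In CD36-negative libraries 1, 2, 4, 7 and 8 it was at 4.37, 20.8, 7.98, 5.32 and 13.04 CPM, from 51 to 207 counts. The groups did not overlap, but the CD36-negative libraries spread widely, with libraries 2 and 8 the highest. The log2 fold change was -2.42 (SE 0.61, edgeR adjusted p = 0.0202). The call was lost without CD36-negative library 2 (-1.996) or 8 (-2.32), without CD36-positive libraries 1 and 3 together, and in limma voom, with adjusted p from 0.000744 to 0.0943 over all alternatives. Optn lies on chromosome 2 of GRCm38 from 5020642 to 5064051, on the minus strand, with 1.9% of its exon bases under an antisense gene.

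**Figure D2:**
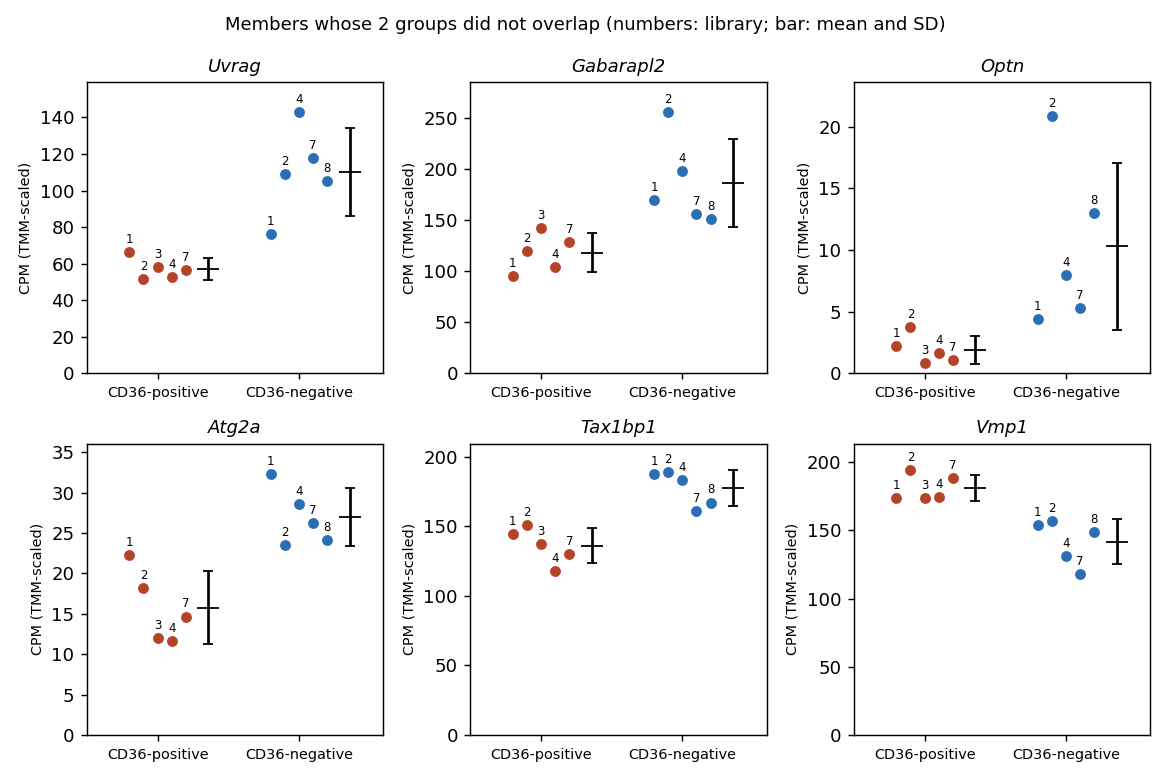
TMM-scaled CPM (y axis, from 0) of the 6 genes whose groups did not overlap, in 5 CD36-positive (left) and 5 CD36-negative (right) libraries, each point labelled with its library number, with mean and SD beside the points. Uvrag, Gabarapl2, Optn, Atg2a and Tax1bp1 were lower, and Vmp1 higher, in every CD36-positive library.

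Markers of several other cell types moved in the same direction as these falls. Of 12 neutrophil markers 9 were tested, and 7 were lower and 0 higher. The 12 summed to 83.7 to 193 CPM in CD36-positive libraries and 345 to 885 in CD36-negative ones. Most of the CD36-positive sum was Csf3r, which did not pass. Csf3r was at 120 ± 39.2 CPM in CD36-positive and 173 ± 75.0 in CD36-negative libraries. Retnlg and G0s2 were at 0 in all CD36-positive libraries, against means of 76.6 and 7.44 CPM in CD36-negative ones. Ly6g, Ngp and Camp averaged under 1 CPM in both groups and were not tested. Of 14 T and NK cell markers 8 were tested and all 8 were lower (sums of 14.7 to 71.9 CPM in CD36-positive, 165 to 669 in CD36-negative libraries, with Prf1 at 0 in the CD36-positive ones). Dendritic cell markers were lower for 13 of 15 (244 to 531 CPM in CD36-positive, 1213 to 1632 in CD36-negative libraries, none at 0). Most of their CD36-positive sum was Siglech, which is also among the microglia markers and did not pass. Siglech was at 268 ± 96.8 CPM in CD36-positive and 222 ± 78.7 in CD36-negative libraries. Monocyte markers were lower for 8 of 13, with sums that overlapped (2843 to 9351 CPM in CD36-positive, 5323 to 10265 in CD36-negative libraries). These sums were mostly Lyz2, which did not pass. Lyz2 was at 5482 ± 2445 CPM in CD36-positive and 6590 ± 1948 in CD36-negative libraries. Ccr2 (log2 fold change 0.01), Vcan (0.38), Fn1 (-0.47) and F10 (-2.81) did not pass either. Immediate early genes, which tissue dissociation can induce, were lower for 8 of 12 (852 to 1412 CPM in CD36-positive, 1896 to 2662 in CD36-negative libraries). Nr4a1 is counted as lower in both the monocyte and the immediate early list. Endothelial markers were lower for 2 of 4 tested (10.9 to 14.3 CPM in CD36-positive, 27.2 to 46.2 in CD36-negative libraries, with Cldn5 at 0 in the CD36-positive ones), and photoreceptor markers for 2 of 13 (141 to 1136 CPM in CD36-positive, 457 to 2913 in CD36-negative libraries). Markers of border macrophages moved both ways, with Ms4a7, Pf4 and Siglec1 higher and F13a1 lower of 9 tested. Their sums (1056 to 1305 CPM in CD36-positive, 398 to 1058 in CD36-negative libraries) were mostly Ms4a7, at 799 ± 116 CPM in CD36-positive and 310 ± 121 in CD36-negative libraries. B cell markers gave 0 calls of 2 tested, and Müller glia and astrocyte markers 1 higher and 1 lower of 7. The part of these cells and of dissociation in the falls of Uvrag, Gabarapl2 and Optn was not tested.

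The stretches before the start sites of these 3 genes are shown with that of Atg3, because TFEB, a master regulator of autophagy and lysosome genes, is known to bind the letters CACGTG in a wider motif. The sequences are RefSeq's, from GRCm38.p6, each the 250 bases before the annotated start site and read 5' to 3' in the gene's own direction. Capitals mark CACGTG, which reads the same on both strands and lies 94 and 71 bases before the start of Atg3, and is not in the other 3.
Uvrag: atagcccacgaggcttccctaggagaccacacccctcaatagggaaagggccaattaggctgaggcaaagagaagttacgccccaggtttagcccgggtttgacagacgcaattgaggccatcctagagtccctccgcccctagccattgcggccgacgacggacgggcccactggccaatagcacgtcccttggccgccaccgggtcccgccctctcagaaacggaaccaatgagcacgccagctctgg
Gabarapl2: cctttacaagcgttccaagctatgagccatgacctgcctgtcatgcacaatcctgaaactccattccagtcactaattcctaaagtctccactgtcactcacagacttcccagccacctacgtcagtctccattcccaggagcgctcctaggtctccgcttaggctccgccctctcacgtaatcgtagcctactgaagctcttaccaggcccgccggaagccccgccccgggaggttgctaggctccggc
Optn: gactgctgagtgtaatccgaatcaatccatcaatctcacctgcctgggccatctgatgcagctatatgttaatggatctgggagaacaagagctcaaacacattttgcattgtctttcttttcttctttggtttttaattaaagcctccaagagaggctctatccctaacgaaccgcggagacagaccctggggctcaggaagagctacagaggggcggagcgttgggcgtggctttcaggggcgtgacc
Atg3: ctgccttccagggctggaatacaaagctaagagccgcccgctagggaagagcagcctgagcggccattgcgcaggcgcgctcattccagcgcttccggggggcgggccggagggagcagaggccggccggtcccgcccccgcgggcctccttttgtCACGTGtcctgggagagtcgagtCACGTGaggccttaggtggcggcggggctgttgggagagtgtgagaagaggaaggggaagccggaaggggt
These lie at chr7:99141145-99141394 (minus strand), chr8:111940453-111940702 (plus), chr2:5064118-5064367 (minus) and chr16:45158579-45158828 (plus), in the order printed. GC content was 61.6% for Uvrag, 57.2% for Gabarapl2, 50% for Optn and 68.0% for Atg3, against a median of 52.4% over all promoters. Uvrag, Gabarapl2, Optn and Atg3 held 16, 12, 8 and 21 CpG, against a median of 6.

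RefSeq's table held promoters for 35 of the 41 genes. In windows of 250 bases before to 50 after any listed start site, CACGTG was found for 5 of the 35 (14.3%), against 8.09% of all 27025 genes in the table. The 5 were Atg3, Atg5, Atg7, Atg14 and Rubcn, and 0 of these 5 passed the test. For Atg7, Atg14 and Rubcn the window with the match lies wholly inside the annotated gene and not at its outer end. The Atg7 window starts at 114670846 on chromosome 6, and the gene, on the plus strand, starts at 114643097. The Rubcn window at the outer end of the gene (chromosome 16, 32877680 to 32877979) held 0 matches. The longer TCACGTGA, which contains CACGTG and also reads the same on both strands, was found for Atg3 alone, or 2.86% of the 35 against 1.12% of all genes. A match is a run of letters and not a measured binding site.

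Genes of the ULK1 initiation complex leaned in different directions, and 0 of 5 passed. Ulk1 and Ulk2 encode the kinases that start autophagosome formation. Ulk1 was at 24.8 ± 8.78 CPM in CD36-positive libraries and 15.4 ± 4.61 in CD36-negative ones (log2 fold change 0.69, 95% interval 0.04 to 1.34, edgeR adjusted p = 0.201), and each CD36-positive library lay above the CD36-negative median. Ulk2 was the more abundant of the 2 in counts, with 77.5 ± 6.13% of their summed counts in CD36-positive and 80.3 ± 2.93% in CD36-negative libraries. Its log2 fold change was 0.44 (interval -0.02 to 0.89). Rb1cc1, the scaffold FIP200, was at 148 CPM in CD36-positive library 1 and at 53.3 to 74.9 CPM in the other 4, against 47.4 to 59.0 CPM in CD36-negative libraries (0.59, interval 0.04 to 1.13). Its log2 fold change was 0.22 without CD36-positive library 1 and 0.13 to 0.73 over all alternatives. Atg13, the adaptor of the kinase, was spread widely in both groups, at 8.45 to 37.5 CPM in CD36-positive libraries and 17.7 to 42.4 in CD36-negative ones. Its 2 lowest values were in CD36-positive libraries 3 and 1, and its log2 fold change of -0.68 was -0.28 without them. Atg101, its partner, was at -0.10 (interval -0.54 to 0.34).

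In the class III PI3-kinase complexes Uvrag was the member of 7 that passed. The core subunits are shared by the autophagy-initiating complex, which holds Atg14, and the endosomal complex, which holds Uvrag and serves LC3-associated phagocytosis. Becn1 (Beclin 1) was at 138 ± 18.3 CPM in CD36-positive libraries and 149 ± 12.99 in CD36-negative ones (log2 fold change -0.11, interval -0.45 to 0.23). The lipid kinase Pik3c3 was at -0.31 (interval -0.84 to 0.21) and its regulatory partner Pik3r4 at 0.05 (-0.58 to 0.67). Pik3r4 stood at 47.5 CPM in CD36-positive library 4, against 19.2 to 25.0 CPM in the other 4 of that group. Atg14 was at 17.8 ± 3.19 CPM in CD36-positive and 23.1 ± 6.54 in CD36-negative libraries (-0.38, interval -0.96 to 0.21), and Ambra1, a Beclin 1 regulator, was at -0.29 (-0.82 to 0.24). Rubcn encodes Rubicon, which restrains autophagy and is required for LC3-associated phagocytosis. It was at 25.4 ± 7.16 CPM in CD36-positive libraries and 26.3 ± 4.42 in CD36-negative ones (-0.05, interval -0.59 to 0.50). Summed over the 7 genes the complex was at 294 to 342 CPM in CD36-positive libraries and 385 to 439 in CD36-negative ones, without overlap. Uvrag contributed 57.1 ± 5.97 CPM to the sums of CD36-positive and 110.2 ± 24.0 to those of CD36-negative libraries. Sums of the conjugation genes and of the cargo receptors also did not overlap between groups, while those of the other roles did. No sum was tested. Becn1 held values that were not whole in 9 of 10 libraries, and 43.9% of its exon bases are covered on the opposite strand by Cntd1, which was at 0.887 CPM in CD36-positive and 0.943 in CD36-negative libraries.

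Of the genes that supply and shape the membrane, 0 of 6 passed, yet Atg2a and Vmp1 were each on 1 side of the CD36-negative range in all CD36-positive libraries. Atg2a, a lipid transfer protein gene, was at 22.3, 18.2, 12.04, 11.6 and 14.7 CPM in CD36-positive libraries 1, 2, 3, 4 and 7. It was at 32.3, 23.6, 28.6, 26.2 and 24.2 CPM in CD36-negative libraries 1, 2, 4, 7 and 8. Its log2 fold change was -0.78 (SE 0.26, edgeR adjusted p = 0.0855). It passed without CD36-positive library 1 (0.0290) and in limma voom (0.0426), and adjusted p ran up to 0.257 over its alternatives. Its paralog Atg2b was at -0.18 (interval -0.87 to 0.50), and Atg2a took 47.1 ± 15.9% of the counts of the pair in CD36-positive and 56.4 ± 9.29% in CD36-negative libraries.

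Vmp1 encodes a lipid scramblase of the endoplasmic reticulum. It was at 174, 194, 174, 175 and 188 CPM in CD36-positive libraries 1, 2, 3, 4 and 7, and at 154, 157, 131, 118 and 149 CPM in CD36-negative libraries 1, 2, 4, 7 and 8. All CD36-positive libraries were above all CD36-negative ones, by a small margin (log2 fold change 0.35, SE 0.16, edgeR adjusted p = 0.198). Atg9a, the scramblase of autophagy vesicles, was at -0.36 (interval -1.06 to 0.35). An annotated transcript on the same strand, Gm29253, covers 31.8% of its exon bases. Wipi2, which reads the phosphatidylinositol 3-phosphate mark and recruits the conjugation machinery, was at 34.4 ± 7.14 CPM in CD36-positive libraries and 46.4 ± 3.05 in CD36-negative ones (-0.43, adjusted p = 0.228 in edgeR). Wipi1 was scarce, at 3.16 to 8.95 CPM in CD36-positive libraries and 2.11 to 9.60 in CD36-negative ones (0.09, interval -1.05 to 1.23).

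The conjugation genes gave no call among 7. Summed, they were at 226 to 329 CPM in CD36-positive libraries and 352 to 385 in CD36-negative ones, without overlap, and the sums were not tested. Atg7, the E1-like enzyme that activates both ubiquitin-like systems, was at 17.5, 41.7, 9.60, 28.8 and 24.3 CPM in CD36-positive libraries 1, 2, 3, 4 and 7. In CD36-negative libraries it was at 39.1 to 55.6 CPM. Only CD36-positive library 2 reached that range (log2 fold change -0.86, SE 0.31, edgeR adjusted p = 0.103, and 0.0286 without that library, the lowest of a range up to 0.257). Without CD36-positive libraries 1 and 3 the fold change was -0.51. Atg3, the E2-like enzyme that passes LC3 to its lipid, was at 93.5 ± 20.9 CPM in CD36-positive and 135 ± 18.5 in CD36-negative libraries (-0.52, interval -0.93 to -0.12, edgeR adjusted p = 0.114). It passed after a correction for GC content and length, an alternative added after seeing the data, at -0.79 (adjusted p = 0.0166, the lowest of a range up to 0.213). Atg10, the E2-like enzyme for ATG12, leaned the other way at 0.52 (interval -0.21 to 1.24). The ATG12-ATG5 conjugate with ATG16L1 directs LC3 to membranes. Atg5 was at -0.18, Atg12 at -0.02 and Atg16l1 at 0.12 on the log2 scale, with intervals that all held 0.

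Atg16l2, the less studied paralog of Atg16l1, varied widely among CD36-positive libraries. It was at 19.4, 3.84, 35.4, 12.7 and 10.3 CPM in CD36-positive libraries 1, 2, 3, 4 and 7 and at 20.5 to 29.8 CPM in CD36-negative libraries. As a share of the pair's counts it ran from 6.85% in library 2 to 61.4% in library 3 of the CD36-positive group, against 32.7% to 50.1% in CD36-negative libraries. The log2 fold change of -0.67 did not pass (interval -1.55 to 0.20, edgeR adjusted p = 0.379), and was -1.53 without CD36-positive libraries 1 and 3, where it passed (adjusted p = 0.0191, the lowest of a range up to 0.505). In limma voom it was at -1.28 and also passed.

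ATG4 proteases cut LC3 precursors and release LC3 from membranes, and 0 of 4 passed. Atg4a was at 21.3 ± 5.42 CPM in CD36-positive libraries and 12.9 ± 5.73 in CD36-negative ones (log2 fold change 0.72, interval -0.02 to 1.46), while Atg4c was at 14.9 ± 4.99 CPM in CD36-positive and 25.4 ± 8.77 in CD36-negative libraries (-0.77, interval -1.46 to -0.08). Neither passed (edgeR adjusted p = 0.249 and 0.175). Atg4b, the main LC3 protease, was at -0.08 (interval -0.60 to 0.44) and Atg4d at -0.46 (-1.08 to 0.16). Within the 4 proteases Atg4a took 15.6% to 34.4% of the counts in CD36-positive and 4.78% to 16.3% in CD36-negative libraries, and the ranges overlapped. Atg4a also has an annotated pseudogene. The Atg4a counts were whole numbers in every library, and sharing of reads with the pseudogene was not tested. Atg4d held values that were not whole, and 19.3% of its exon bases are covered by Kri1 on the opposite strand.

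The ATG8 family held the pair of genes most abundant per length. Gabarap was at 336 ± 47.5 CPM per kb of merged exons in CD36-positive and 313 ± 23.5 in CD36-negative libraries, above Gabarapl2, at 50.8 ± 8.20 in CD36-positive and 80.2 ± 18.5 in CD36-negative libraries. In counts, Gabarap was at 539, 664, 510.1, 680.0 and 701 CPM in CD36-positive libraries 1, 2, 3, 4 and 7. It was at 543, 610.2, 631, 573 and 529 CPM in CD36-negative libraries 1, 2, 4, 7 and 8 (log2 fold change 0.10, interval -0.23 to 0.43). The groups overlapped, and CD36-positive libraries 1 and 3 were the lowest of theirs.

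Map1lc3b encodes LC3B, the usual marker of autophagosomes. It was at 105, 267, 165, 227 and 266 CPM in CD36-positive libraries 1, 2, 3, 4 and 7, against 222, 193, 238, 236 and 276 CPM in CD36-negative libraries 1, 2, 4, 7 and 8. Its lowest 2 values were again in CD36-positive libraries 1 and 3 (-0.18, interval -0.65 to 0.30). Map1lc3a, which encodes LC3A, was at 15.4, 22.2, 11.3, 26.7 and 28.1 CPM in the CD36-positive and 15.6, 28.8, 39.9, 38.9 and 29.2 CPM in the CD36-negative libraries (-0.55, interval -1.20 to 0.11). The ranges overlapped, with CD36-negative library 1 among the CD36-positive values. Gabarapl1 was at 21.2, 39.4, 20.9, 48.9 and 35.3 CPM in CD36-positive and 40.0, 37.5, 49.2, 40.0 and 59.3 CPM in CD36-negative libraries (-0.44, interval -0.99 to 0.10). Its ranges overlapped too, and 28.3% of its exon bases are covered by a gene on the opposite strand.

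Within the family, the share of Gabarap was higher in every CD36-positive library than in any CD36-negative one. Gabarap took 69.5%, 59.7%, 59.99%, 62.6% and 60.5% of the counts of the 5 genes in CD36-positive libraries 1, 2, 3, 4 and 7. It took 54.8%, 54.2%, 54.6%, 54.9% and 50.6% in CD36-negative libraries 1, 2, 4, 7 and 8. No CD36-positive library fell within the CD36-negative range, and the mean share was 8.63 percentage points higher. Gabarapl2 held 12.1 ± 2.80% in CD36-positive and 17.3 ± 3.28% in CD36-negative libraries, with an overlap at CD36-positive library 3. Of the 19 shares computed over 7 paralog groups, that of Gabarap was the only one whose groups did not overlap. It was picked out after the values were seen and was not tested. Summed over the 5 genes the family was at 776 to 1159 CPM in CD36-positive libraries and 991 to 1156 in CD36-negative ones.

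**Figure D3:**
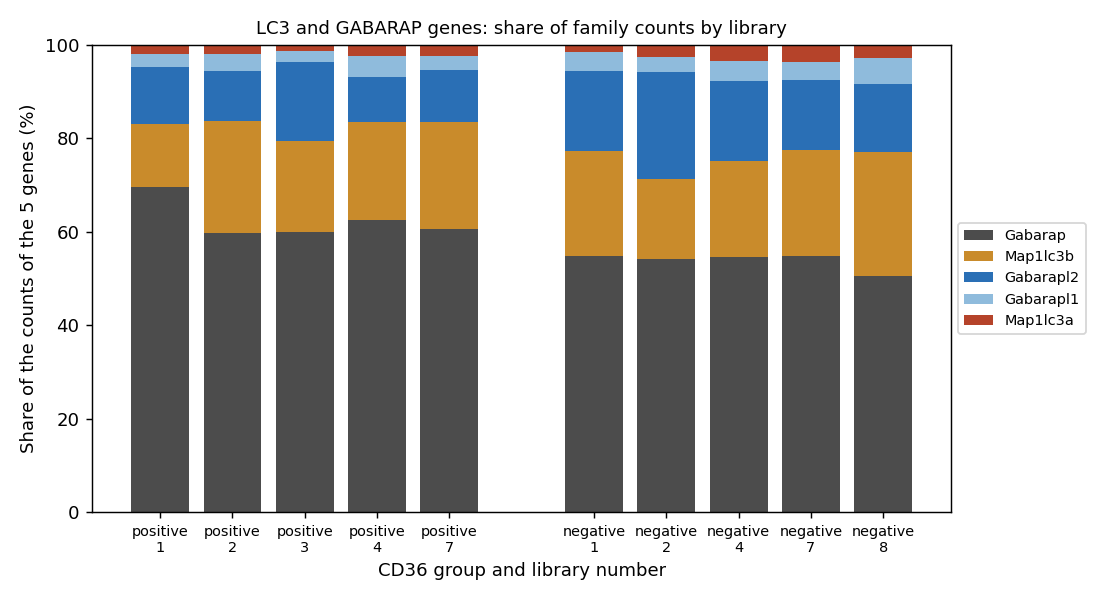
Stacked bars show the share of the summed counts of the 5 LC3 and GABARAP genes (y axis, percent) that each gene took, per library, with CD36-positive libraries on the left. Gabarap, at the foot of each bar, took 59.7% to 69.5% in CD36-positive and 50.6% to 54.9% in CD36-negative libraries.

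All 4 cargo receptor genes had a negative log2 fold change, and Optn alone passed. Tax1bp1, which delivers ubiquitinated cargo and restrains inflammatory signalling, was at 144, 151, 137, 118 and 130.1 CPM in CD36-positive libraries 1, 2, 3, 4 and 7. It was at 188, 189, 183, 161 and 167 CPM in CD36-negative libraries 1, 2, 4, 7 and 8. The groups did not overlap, although the difference was small (-0.38, SE 0.15, edgeR adjusted p = 0.153). It passed after the correction for GC content and length, at -0.71 (adjusted p = 0.00454, the lowest of a range up to 0.279). Nbr1 was at -0.26 (interval -0.68 to 0.16). Calcoco1, a receptor for endoplasmic reticulum fragments, was at 3.54 CPM in CD36-positive library 1 and 10.0 to 20.5 CPM in the other 4, against 11.98 to 20.4 CPM in CD36-negative libraries (-0.51, interval -1.32 to 0.30). Summed, the 4 receptors were at 190 to 213 CPM in CD36-positive libraries and 253 to 286 in CD36-negative ones. Most of this was Tax1bp1, at 136 ± 12.7 CPM in CD36-positive and 178 ± 12.7 in CD36-negative libraries. Optn added 1.92 ± 1.14 CPM in CD36-positive and 10.3 ± 6.78 in CD36-negative libraries, and the sums were not tested.

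Stx17, the SNARE that fuses autophagosomes with lysosomes, was at 38.7 ± 16.0 CPM in CD36-positive libraries and 37.3 ± 5.92 in CD36-negative ones (log2 fold change 0.06, interval -0.50 to 0.61). Its highest and its lowest value of all were in CD36-positive libraries 3 (64.0 CPM) and 1 (20.8 CPM). Tfeb and Tfe3 encode transcription factors that induce autophagy and lysosome genes. Tfeb was at 24.4, 34.8, 25.4, 34.6 and 41.7 CPM in CD36-positive libraries 1, 2, 3, 4 and 7, against 36.3 to 53.0 CPM in CD36-negative libraries (-0.45, interval -0.92 to 0.01, edgeR adjusted p = 0.248). One CD36-positive library, number 7, reached the CD36-negative range. Tfe3 was at 0.10 (interval -0.37 to 0.57).

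**Figure D4:**
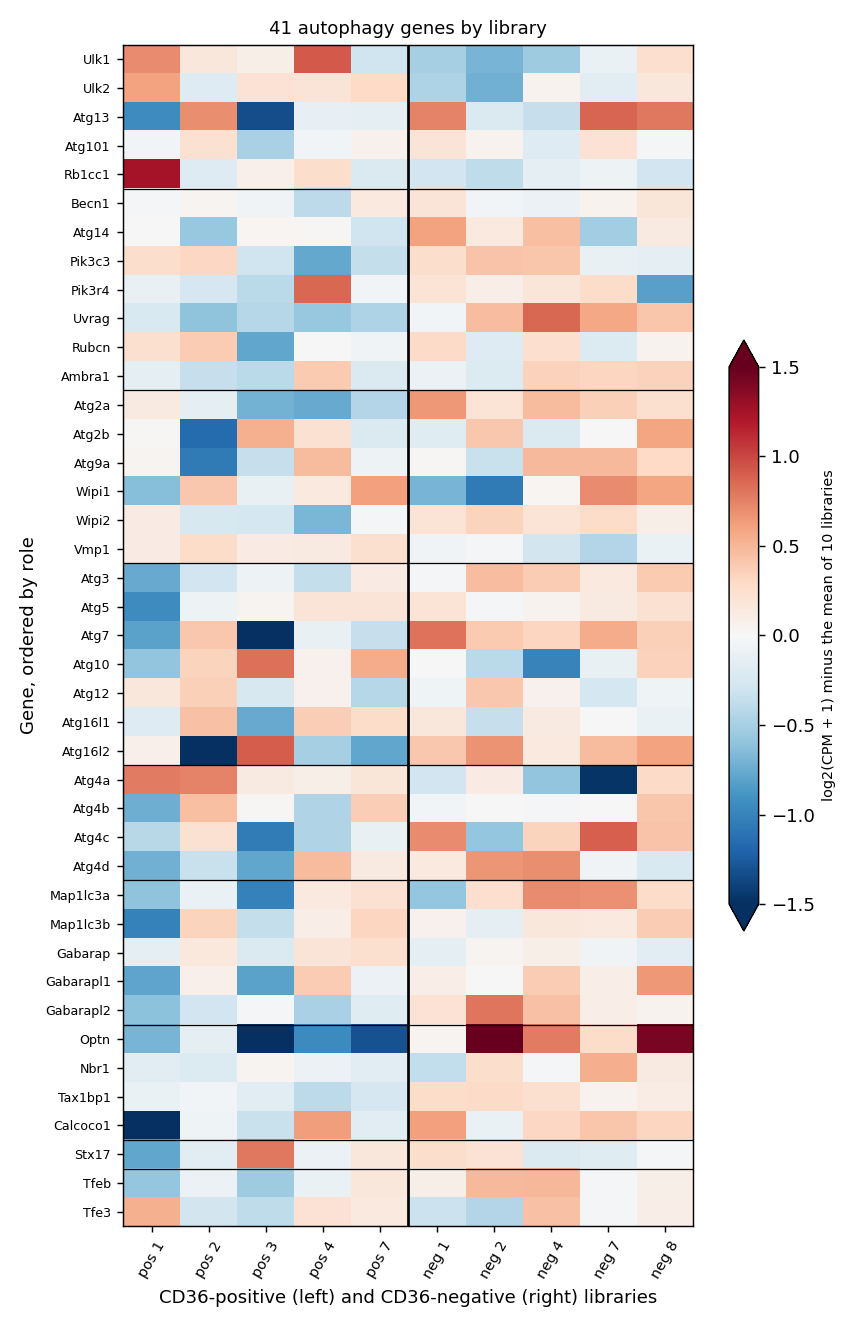
Colour gives log2(CPM + 1) of each gene in each library minus its mean over the 10 libraries, clipped at 1.5 in either direction, with CD36-positive libraries left of the line and genes ordered by role. CD36-positive libraries 1 and 3 hold the lowest values of Atg7, Atg13 and Map1lc3b, and CD36-positive library 2 that of Atg16l2.

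Levels per length spread widely among the 41 genes. After Gabarap and Gabarapl2, Vmp1 followed at 46.8 ± 2.49 and Atg3 at 29.6 ± 6.63 CPM per kb in CD36-positive libraries, against 36.7 ± 4.31 and 42.7 ± 5.85 in CD36-negative ones. At the other end were Wipi1, at 1.40 ± 0.508 CPM per kb in CD36-positive and 1.32 ± 0.759 in CD36-negative libraries, and Atg2b, at 1.39 ± 0.550 in CD36-positive and 1.57 ± 0.426 in CD36-negative libraries. Optn was at 0.512 ± 0.304 CPM per kb in CD36-positive and 2.75 ± 1.81 in CD36-negative libraries. Optn was the lowest of the 41 in CD36-positive libraries, while in CD36-negative libraries Wipi1, Atg2b and Ulk1 were lower.

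**Figure D5:**
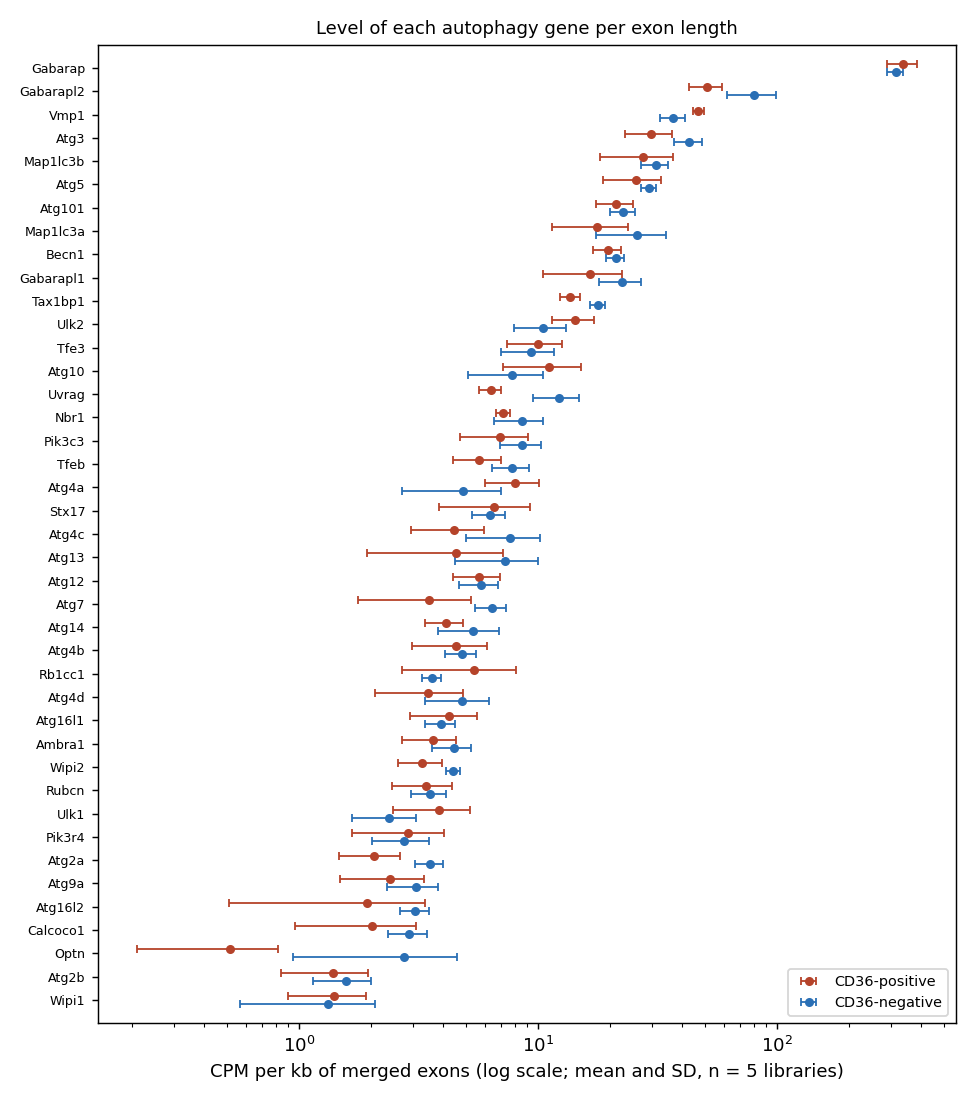
Mean and SD over 5 libraries of each gene's level in CPM per kb of merged exons (x axis, log scale), for CD36-positive (upper, red) and CD36-negative (lower, blue) libraries, ordered by the mean of all 10. Gabarap stands apart at the top near 300, and Wipi1, Atg2b and Optn are at the bottom.

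Other genes of the pathway were taken from lists of 74, of which 71 were in the table and all 71 were tested. In edgeR 3 rose, or 4.23% against the 2.61% of all genes that rose. None fell, against 4.74% of all genes. The share called in either direction was thus 4.23%, below the 7.36% of all genes. At an unadjusted p under 0.05 there were 7 higher and 6 lower, while 10.6% of all genes were higher and 10.8% lower by that rule. DESeq2 called 2 lower and limma voom 1. The median log2 fold change was -0.02. Cybb, the catalytic subunit of the phagocyte NADPH oxidase that LC3-associated phagocytosis needs, rose. It was at 1795, 1372, 1234, 1074 and 1184 CPM in CD36-positive libraries 1, 2, 3, 4 and 7, and at 1011, 916, 679, 719 and 875 CPM in CD36-negative libraries 1, 2, 4, 7 and 8. All CD36-positive libraries were above the CD36-negative ones (0.66, SE 0.18, edgeR adjusted p = 0.0357). Other oxidase genes did not pass: Rac2 was at -0.53 (adjusted p = 0.0952 in edgeR, 0.0418 to 0.322 over its alternatives, the lowest in DESeq2), Ncf1 at -0.34, and Ncf4, Cyba and Rac1 within -0.05 to 0.08.

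Dram2, a lysosomal membrane protein gene of autophagy, rose to 236 ± 40.5 CPM in CD36-positive libraries, against 144 ± 30.1 CPM in CD36-negative ones (0.71, SE 0.19, edgeR adjusted p = 0.0252), without overlap. Sesn1, a stress-induced inhibitor of mTORC1, rose to 198 ± 55.6 CPM in CD36-positive libraries, against 117 ± 12.3 in CD36-negative ones (0.76, SE 0.20, edgeR adjusted p = 0.0301), with CD36-positive library 3 (116 CPM) inside the CD36-negative range. These 3 calls were close to the threshold. Without 1 library at a time Cybb did not pass in 7 of 10 fits, Sesn1 in 8 and Dram2 in 5, and the count of higher genes ran from 0 (without CD36-negative library 2 or 4) to 3. Cybb, at 0.42, and Dram2, at 0.32, also missed the threshold once GC content and length were corrected for. Cybb missed it as well with no filter on low counts (0.64) and without CD36-positive libraries 1 and 3 (0.52), and Sesn1 (0.67) and Dram2 (0.64) with detected genes per library as a covariate.

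Ddit4, another mTORC1 inhibitor, was at 2.24 ± 1.41 CPM in CD36-positive and 8.59 ± 3.70 in CD36-negative libraries and just missed the threshold (-1.95, SE 0.59, edgeR adjusted p = 0.0555, and 0.00827 to 0.1801 over its alternatives). It was among the genes called lower by DESeq2 and by limma voom. Fnip1, a folliculin partner that binds AMPK, had the same adjusted p on the higher side. It was at 190, 68.9, 97.7, 83.1 and 60.7 CPM in CD36-positive libraries 1, 2, 3, 4 and 7 and at 46.7 to 58.7 CPM in CD36-negative libraries, without overlap and with CD36-positive library 1 the highest (0.88, SE 0.27, edgeR adjusted p = 0.0555, and 0.0186 to 0.275 over its alternatives). Ddit4 passed in 5 of 20 alternatives and Fnip1 in 6 of 21, and these genes were picked once their values were known. Among cargo receptors outside the 41, Sqstm1, the receptor p62, was at 298 ± 94.0 CPM in CD36-positive and 439 ± 106 in CD36-negative libraries (-0.56, interval -1.03 to -0.09), and Bnip3l, a mitophagy receptor, was at 114 ± 26.9 CPM in CD36-positive and 158 ± 20.7 in CD36-negative libraries (-0.47, interval -0.88 to -0.05). Neither passed in edgeR (adjusted p = 0.153 and 0.173, and each passed in 1 of 21 alternatives, at 0.0451 and 0.0488), and 0 of the 10 tested genes of that list did. Of 15 fusion genes 0 passed. Lamp2, a lysosomal membrane protein gene, was at 876 ± 114 CPM in CD36-positive and 629 ± 139 in CD36-negative libraries (0.48, interval 0.10 to 0.86), and Vps16, a subunit of the HOPS tethering complex, was at -0.33 (interval -0.81 to 0.14).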

How the data were processed

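RNA was sequenced from 10 samples of sorted retinal cells. The values the authors deposited are expected counts in 1 table by gene symbol, not normalized, and 91.9% of them are whole numbers. Named in the submitters' processing notes are mm10, HISAT2 2.1.0, StringTie 1.3.1, Bowtie2 2.2.8 and fastp 0.18.0; the counting program and its strand setting are not given in the sources used here. Of 22008 lines, 8 damaged ones and 131 exact repeats were dropped. Groups and numbers follow the description label.

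Counts were rounded, filtered (edgeR filterByExpr, minimum count 10) and scaled by TMM. The quasi-likelihood functions of edgeR 4.0.16 (R 4.3.3) tested group with no covariate, and p-values were adjusted by Benjamini-Hochberg over all 11596 genes. Intervals are 95%, from the SE and the test's degrees of freedom. The test was checked on simulated counts, drawn gene by gene with the same dispersion in both groups. Such counts hold no shift in cell mixture and no difference in spread between groups, so that check does not cover them. Replicates differed beyond sampling noise (20 pairs gave a chi-square of 23.4 to 115 times its degrees of freedom). Alternatives used DESeq2 1.42.0, limma 3.58.1, other filters, left-out libraries, blocks and covariates. Exon lengths and coordinates are from GENCODE M21 (GRCm38), and promoters from RefSeq. Values in every library are given for members that passed, members whose groups did not overlap and the ATG8 family, and for a few others chosen after their values were seen; the rest are given by fold change, interval and counts by role. In each pathway list the genes that passed are named, or the 2 with the smallest p where none passed; Ddit4, Fnip1 and the oxidase genes other than Cybb were added after their values were seen. Cd36 checks the sort. The members and gene lists were chosen with earlier results of these data known. A floor of 3 counts corresponds to 0.238 to 0.558 CPM in 1 library, which covers counting error only.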

Additional observations from a re-analysis of the deposited data

Results flagged for a closer look

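Single libraries stood apart from the other 4 of their group by Dixon's test (critical value 0.71 for 5 values) in 5 of 82 groups of CPM values and 2 of 28 groups of shares; chance flags about 1 in 20. Rb1cc1 was at 148 CPM in CD36-positive library 1, against 53.3 to 74.9 CPM in the others of its group. Pik3r4 was at 47.5 CPM in CD36-positive library 4 (others 19.2 to 25.0) and at 14.2 CPM in CD36-negative library 8 (others 27.7 to 31.5). Ambra1 was at 31.9 CPM in CD36-positive library 4 (others 17.9 to 21.8). Atg4b was at 50.3 CPM in CD36-negative library 8 (others 36.5 to 37.4). The share of Ulk1 in the counts of Ulk1 and Ulk2 was 14.6% in CD36-negative library 4 (others 20.1% to 21.8%). The share of Gabarap in the ATG8 family was 50.6% in CD36-negative library 8 (others 54.2% to 54.9%).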

How the results depend on the processing

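Among refits of single members' fold changes, 877 kept their call, 16 lost it, 7 gained it and 0 reversed. The count of lower members, 3, was 1 to 3 without 1 library, 1 at an adjusted p under 0.01 and 5 after the correction for GC content and length. Atg2a and Atg16l2 also passed in limma voom, where Optn did not. Without CD36-positive libraries 1 and 3 Atg16l2 passed, while Gabarapl2 and Optn did not. The count of higher pathway genes, 3, was 0 to 3 without 1 library, 0 at an adjusted p under 0.01 and 1 after the correction for GC content and length. Fnip1 passed beside those 3 with DESeq2 and under the filter of 10 CPM in 5 libraries. Lamp2 did so with a covariate of Y-linked level. The count of lower pathway genes, 0, was 0 to 1 without 1 library, 2 with DESeq2, and 1 without CD36-positive libraries 1 and 3, in limma voom, with a covariate of Y-linked level and after the correction. Members entirely above the CD36-negative range numbered 1 to 2 without 1 library and 3 without CD36-positive libraries 1 and 3. Leaving out libraries makes such separation easier for any gene, and no share of all genes was set beside these counts. The cause of these shifts was not tested. The members' median ran from -0.29 to -0.17. The covariate of Y-linked level and the correction for GC content and length were added after seeing the data. With the description's replicate number as a block 2 members were lower, since Optn did not pass (edgeR adjusted p = 0.0943), and with the titles' numbers 3. Same-numbered libraries correlated in their deviations at 0.03 to 0.13 (description) and -0.02 to 0.13 (titles), not every library correlated best with its own number, and the numbers were not taken as pairs. Optn was not tested under the filter of 10 CPM in 5 libraries. Low counts limit Optn and Wipi1 most.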
